A study of Mus musculus with 12 samples.

Results

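Both sorted fractions of BMP4-treated cells, GFP positive and GFP negative, were compared, as 6 arrays, with 3 arrays of cells given BMP4 and not sorted. These 9 arrays were taken by their labels from the 12 of the study, and the other 3 are of untreated cells. XEN cells are stem cells derived from the extraembryonic endoderm of the mouse blastocyst, and all 4 groups carry an Afp::GFP transgene, which places a green fluorescent protein under control elements of the alpha-fetoprotein gene. All were grown in N2B27, a serum-free medium. GFP positive cells (3 arrays) were given BMP4, a bone morphogenetic protein, and collected by flow sorting for GFP. GFP negative cells (3 arrays) were given BMP4 and collected in the sort as cells without GFP. Unsorted BMP4 cells (3 arrays) were given BMP4 with no sort, and untreated cells (3 arrays) had neither BMP4 nor a sort. The labels call the cells 1 transgenic line and do not say how many clones it holds. The sources used here give neither the dose and time of BMP4 nor the sorting gates, slides and scan runs, and they do not say whether the 3 samples of a group came from separate cultures. P-values therefore measure the spread between these arrays, which may be technical, and the number of arrays limits the precision. The sort, the culture and the array run differ together between sorted and unsorted cells and cannot be told apart. The comparison addresses, gene by gene, whether the signal of the unsorted cells lay between the signals of the fractions or outside both.

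XEN cells can take on features of both lineages of the extraembryonic endoderm. Parietal endoderm migrates along the trophoblast and lays down a thick basement membrane rich in laminin, nidogen and type IV collagen. Visceral endoderm is an epithelium that takes up maternal protein and secretes serum proteins such as alpha-fetoprotein and transthyretin. BMP signals pass through SMAD proteins to target genes such as the Id genes, and BMP4 is known to move XEN cells toward visceral endoderm.

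Raw signals differed between the sorted and unsorted arrays before normalization. The median bead signal was 22.6 to 32.4 on the 6 sorted arrays and 57.7 to 60.1 on the 3 unsorted BMP4 arrays, over a lowest signal of 3.3 to 6.8 on the sorted and 24.6 to 26.2 on the unsorted arrays. Detected probes numbered 13105 to 13745 on sorted and 13872 to 14230 on unsorted BMP4 arrays. Across 10597 genes, a GFP positive and a GFP negative array correlated at r of 0.992 to 0.994, and either fraction correlated with unsorted BMP4 arrays at 0.945 to 0.954. Unsorted BMP4 arrays correlated with untreated arrays at 0.943 to 0.951. These correlations run across genes, which are not independent replicates. No 2 arrays were identical.

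The labels were checked against marker genes. Afp was highest on the 3 GFP positive arrays, and the GFP transcript was not analysed here. Gata4, Gata6 and Sox17, transcription factors of primitive endoderm, were detected on all 9 arrays. Pou5f1, Nanog and Sox2, which define pluripotent cells, did not pass the detection filter, and 2 of 10 pluripotency markers did. No fibroblast marker of 10 (Col1a1, Col1a2 and Col3a1 among them) and no neural marker of 8 passed it. Of 10 trophoblast markers 3 were measured, and their summed linear signal was 316 to 334 on GFP positive, 314 to 380 on GFP negative and 376 to 398 on unsorted BMP4 arrays. Of 11 markers of mesoderm, blood and endothelium 3 were measured, with sums of 626 to 657, 499 to 507 and 808 to 896 in the same 3 groups. Of 8 gut endoderm markers, Vil1 and Cpm were measured, and their sum was 1990 to 2110 on GFP positive, 2300 to 2360 on GFP negative and 929 to 1330 on unsorted BMP4 arrays. Vil1, the actin-bundling protein villin, is also known from visceral endoderm. The part of any other cell type, and of the lower raw signal on sorted arrays, in the results was not tested.

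Most genes lay outside both fractions in the unsorted cells. A gene was called outside when both fractions differed from the unsorted BMP4 cells in the same direction, each at an adjusted p under 0.05 in limma. By this rule 3091 genes were higher in both fractions than in unsorted cells (29.2% of 10597) and 3030 were lower in both (28.6%), together 57.8%. Signals of the 6 sorted arrays did not overlap those of the 3 unsorted arrays for 6310 genes (59.5%), of which 3185 were above (30.1%) and 3125 below (29.5%). The mean of both fractions differed from unsorted cells in 3685 genes that were higher (34.8%) and 3747 that were lower (35.4%), together 70.1%. For 510 genes (4.81%) even the nearer fraction was at least 2-fold higher, and for 272 (2.57%) at least 2-fold lower, where a side with no detected array was counted by its bound. The GFP positive fraction alone differed from unsorted cells in 3456 genes that were higher (32.6%) and 3540 that were lower (33.4%), and the GFP negative fraction in 3524 (33.3%) and 3458 (32.6%). The fractions differed from each other in 571 genes (5.39%). The median absolute difference over all genes was 0.36 on the log2 scale between the mean of the fractions and unsorted cells, against 0.10 between the fractions.

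The balance of directions depended on the scaling. Quantile normalization, used throughout, gave 3091 higher and 3030 lower, so that 50.5% of called genes were higher in the fractions, and scaling by the median gave 2154 higher and 3647 lower, or 37.1% higher. Median scaling moved the median of all genes by -0.12. The median difference over all genes was -0.02 with quantile normalization and -0.14 with median scaling. The medians of gene lists below are to be read against these. List counts with median scaling are to be read against 2154 higher and 3647 lower of 10597 genes. Calls outside both made up 51.7% of the dimmest, 61.2% of the middle and 60.4% of the brightest genes when genes were split in 3 by mean signal. Among calls outside both, 303 genes higher in the fractions were not detected on any unsorted array and 232 lower in them were not detected on any sorted array, so their folds are bounds. For 43 called genes no array of the 3 BMP4 groups detected the probe, and these have no fold.

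**Figure D1:**
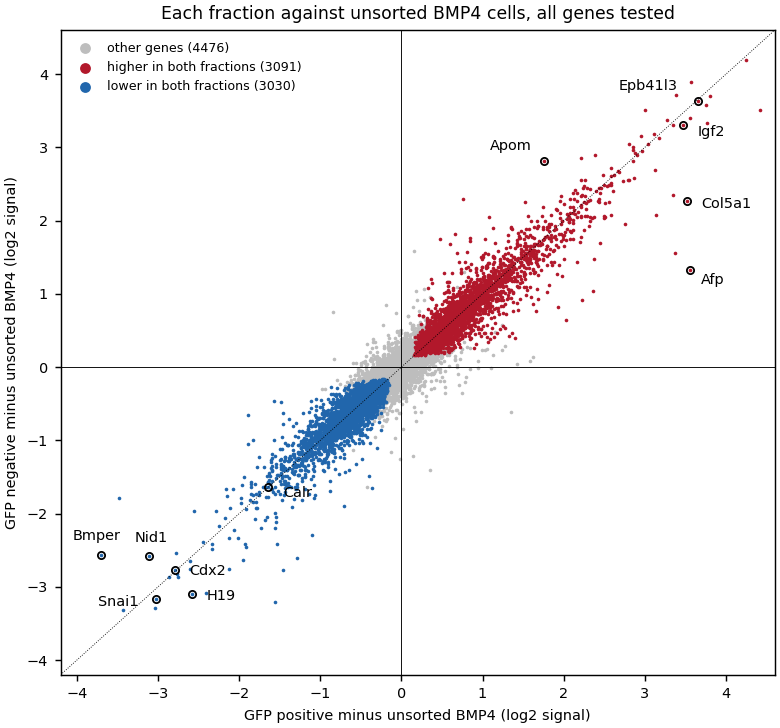
Log2 difference of GFP positive (x axis) and of GFP negative cells (y axis) from unsorted BMP4 cells, 1 point per gene, 10597 genes. Red points (3091) were higher in both fractions, blue points (3030) lower in both, grey points neither; the dotted line marks equal differences. Both axes share the same 3 unsorted arrays. Afp and Col5a1 stand below the line, and Apom above it.

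Alpha-fetoprotein itself lay outside both fractions. Afp signal on the log2 scale was 9.77, 9.50 and 9.46 on the GFP positive arrays, 7.20, 7.38 and 7.46 on the GFP negative arrays, and 5.98, 6.15 and 5.94 on the unsorted BMP4 arrays. The GFP negative cells, sorted for lack of GFP, were thus above every unsorted array, and untreated cells averaged 5.50. Over the mean of both fractions Afp was higher by 2.44 ± 0.14 (SE) on the log2 scale, and the larger of the adjusted p-values of the 2 fractions was 1.06e-05 in limma. In RNA from many cells, fewer cells of a type and less RNA per cell cannot be told apart. Afp is read out in the sort through its control elements, so its promoter is shown here from RefSeq's table on GRCm38.p6, chr5:90490464-90490763, plus strand, from 250 bases before to 50 after the start of the gene.
Afp: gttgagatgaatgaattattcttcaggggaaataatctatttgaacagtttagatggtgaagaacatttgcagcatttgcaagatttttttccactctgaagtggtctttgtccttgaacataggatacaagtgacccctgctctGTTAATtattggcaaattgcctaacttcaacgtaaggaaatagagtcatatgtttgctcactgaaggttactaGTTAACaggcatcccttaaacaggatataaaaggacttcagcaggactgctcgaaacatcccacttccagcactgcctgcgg
Capitals mark the letters GTTAAT or GTTAAC, part of the site of the liver factor HNF1, searched on both strands, with 2 matches in Afp. Such a match was found in the promoters of 11.3% of 27025 genes, and it is a description of the letters only.

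Visceral endoderm genes were more often higher than lower in both fractions. Of 23 measured, 11 were higher in both (47.8%, against 29.2% of all genes) and 3 were lower (13%, against 28.6%). The other 9 were not outside, and the median difference of the list was 0.46. With median scaling the list had 9 higher, 3 lower and a median of 0.28. Apom, an apolipoprotein that carries sphingosine phosphate, gave 9.61, 9.49 and 9.74 on GFP positive, 10.81, 10.54 and 10.69 on GFP negative, and 8.01, 7.98 and 7.57 on unsorted BMP4 arrays. Every sorted array was above every unsorted array, with the GFP negative arrays highest, and the difference was 2.29 ± 0.10 (larger adjusted p = 4.43e-08, limma). Foxa1, a forkhead factor of endoderm, was detected on all 6 sorted arrays and on no unsorted array, at least 2.08-fold higher. Its fellow factor Foxa2 ran the other way, at -0.62 ± 0.10.

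The uptake receptors of visceral endoderm and the factor Hnf4a were higher in both fractions. Cubn, which encodes cubilin, was 7.92, 7.77 and 7.91 on GFP positive, 8.65, 8.67 and 8.58 on GFP negative, and 7.00, 6.55 and 6.64 on unsorted BMP4 arrays, a difference of 1.52 ± 0.09. Its partner Amn, amnionless, was higher by 0.77 ± 0.08, and Lrp2, the receptor megalin, by 0.77 ± 0.10. Lrp2 lost its call in 1 fraction with median scaling (larger adjusted p = 0.127) and without the second unsorted array (0.0557). Dab2, an adaptor for megalin uptake, was higher by 0.57 ± 0.06. As a nuclear receptor, Hnf4a drives serum protein genes. Hnf4a was higher by 1.15 ± 0.10, and Ttr, the thyroxine carrier transthyretin, by 0.84 ± 0.07.

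Several secreted products of visceral endoderm did not lie outside or were lower in both fractions. Apoe differed by 0.09 ± 0.08 (larger adjusted p = 0.406), and Apoa1 by -0.04 ± 0.10. Trf, which encodes the iron carrier transferrin, averaged 7.77 in GFP positive and 6.01 in GFP negative cells, with unsorted cells between them at 7.42. Rbp4, the retinol carrier, was lower in the fractions at 4.55 in GFP positive and 5.65 in GFP negative cells, against 6.12 in unsorted cells, and 0 GFP positive and 1 GFP negative array detected it. Fga, a fibrinogen chain, was not detected on any sorted array and was at least 1.33-fold lower.

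Parietal endoderm genes lay mostly lower in both fractions. Of 18 measured, 13 were lower (72.2%, against 28.6% of all genes), 4 were higher (22.2%, against 29.2%) and 1 was not outside. The median was -0.52 (with median scaling, 12 lower, 2 higher and -0.64). Nid1, the basement membrane linker nidogen, gave 7.80, 7.87 and 7.96 on GFP positive, 8.29, 8.35 and 8.58 on GFP negative, and 10.70, 10.94 and 11.31 on unsorted BMP4 arrays. All sorted arrays were below all unsorted arrays by a difference of -2.85 ± 0.11, or 7.19-fold, and untreated cells were higher still at 13.79. A dimmer probe of Nid1 differed by -0.47.

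Snai1, a repressor of E-cadherin that parietal endoderm expresses, showed the list's largest difference. It was 6.73, 6.76 and 6.87 on GFP positive, 6.67, 6.69 and 6.58 on GFP negative, and 9.56, 9.90 and 9.96 on unsorted BMP4 arrays (-3.09 ± 0.09, larger adjusted p = 1.54e-10, limma). Thbd, the anticoagulant receptor thrombomodulin, averaged 5.76 in GFP positive and 5.61 in GFP negative cells, against 7.83 in unsorted and 10.55 in untreated cells. It was detected on 2 GFP positive and 0 GFP negative arrays. Plat, tissue plasminogen activator, differed by -1.22 ± 0.07, and Sparc, a collagen-binding matrix protein, by -0.68 ± 0.08.

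The laminin and collagen genes of this lineage moved little or in both directions. Col4a1 differed by -0.33 ± 0.07, without a call under median scaling (larger adjusted p = 0.0848), while Col4a2 at -0.05 ± 0.07 was not outside. Lamb1 at -0.54 ± 0.11 and Lamc1 at -0.29 ± 0.07 were lower, with a dimmer Lamc1 probe at 0.02. Lama1 was higher by 0.29 ± 0.06, a call that was lost with median scaling (0.13, larger adjusted p = 0.503). The intermediate filament genes Krt19 (0.71 ± 0.07) and Vim (0.41 ± 0.06) were also higher. The transcription factors shared by both lineages were lower in the fractions: Gata6 by -1.28 ± 0.09, Gata4 by -1.24 ± 0.11 and Sox17 by -0.71 ± 0.07. A dimmer Sox17 probe differed by -0.07.

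**Figure D2:**
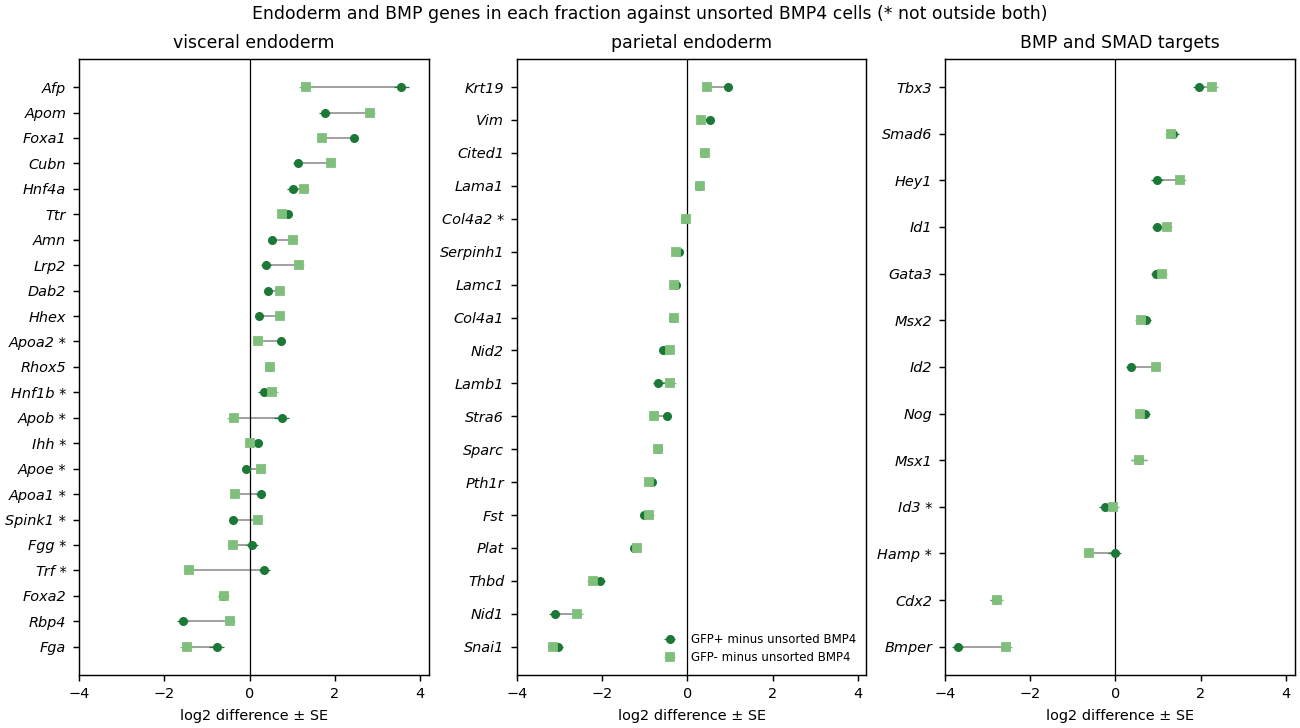
Log2 difference from unsorted BMP4 cells (x axis, ± SE of the fit) for each measured gene of the visceral endoderm, parietal endoderm and BMP lists, as circles for GFP positive and squares for GFP negative cells. An asterisk marks genes that were not outside both. Of the genes shown, 11 of 23 visceral, 4 of 18 parietal and 9 of 13 BMP genes were higher in both fractions.

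Most measured BMP targets were higher in both fractions than in unsorted cells that had also been given BMP4. Of 13 measured, 9 were higher (69.2%, against 29.2% of all genes), 2 were lower (15.4%, against 28.6%) and 2 were not outside. The median was 0.65 (0.57 with undetected genes at their bounds, 0.52 with median scaling). Id1, an inhibitor of basic helix-loop-helix factors and a direct SMAD target, gave 11.35, 11.31 and 11.28 on GFP positive, 11.59, 11.51 and 11.57 on GFP negative, and 10.61, 10.42 and 10.00 on unsorted BMP4 arrays. Untreated cells averaged 7.20, and the difference of the fractions from unsorted BMP4 cells was 1.09 ± 0.10. All 9 arrays with BMP4 were thus above the untreated arrays, and the 6 sorted arrays lay above the 3 unsorted.

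Other targets followed Id1 to different extents. Tbx3, a T-box repressor, was 9.71, 9.92 and 9.82 on GFP positive, 10.13, 10.10 and 10.18 on GFP negative, and 8.15, 7.79 and 7.67 on unsorted BMP4 arrays, a difference of 2.11 ± 0.11. Smad6, an inhibitor that BMP signals induce against themselves, was higher by 1.32 ± 0.12. Id2 was higher by 0.65 ± 0.09, with its call lost under median scaling (0.51, larger adjusted p = 0.195), and Id3 was not outside at -0.15 ± 0.12. Hey1 and Gata3 were detected on all 6 sorted and no unsorted array, at least 1.49-fold and 1.41-fold higher.

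A pair of genes of this list was far lower. Bmper, a secreted BMP-binding protein, averaged 5.08 in GFP positive and 6.21 in GFP negative cells, against 8.78 in unsorted BMP4 and 11.19 in untreated cells, and no GFP positive array detected it. Against unsorted cells its difference in GFP negative cells was -2.56 ± 0.13. Cdx2, a homeobox factor of trophoblast and hindgut, was 7.77, 7.82 and 7.86 on the unsorted BMP4 arrays and was detected on none of the 6 sorted and none of the untreated arrays, at least 4.25-fold lower in both fractions than in unsorted BMP4 cells. Of the trophoblast list, Cdx2 was thus lower, while Plac1 (0.90 ± 0.07) and Gata3 were higher.

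The imprinted neighbours Igf2 and H19 moved in opposite directions. Igf2 encodes a fetal growth factor expressed from the paternal copy, and H19 a noncoding RNA expressed from the maternal copy, under a shared control region on chromosome 7. Igf2 was 14.81, 14.85 and 14.71 on GFP positive, 14.61, 14.66 and 14.60 on GFP negative, and 11.35, 11.32 and 11.29 on unsorted BMP4 arrays, against 8.51 in untreated cells. H19 was 11.44, 11.59 and 11.38 on GFP positive, 10.76, 11.05 and 11.04 on GFP negative, and 14.08, 14.21 and 13.84 on unsorted BMP4 arrays. Igf2 was therefore 10.5-fold higher in the fractions (3.39 ± 0.06, larger adjusted p = 2.73e-12, limma), and H19 7.15-fold lower (-2.84 ± 0.10, 7.61e-10). Untreated cells averaged 11.44 for H19, within the range of the GFP positive arrays.

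The other imprinted genes were also split. Of 10 measured, 3 were higher (30%, against 29.2% of all genes), 5 were lower (50%, against 28.6%) and 2 were not outside. Peg3, a zinc finger gene, was higher by 1.74 ± 0.13 on its brightest probe, though another of its 3 probes differed by -0.42. Snrpn, a splicing protein, was detected on all sorted and no unsorted arrays, at least 2.23-fold higher. Cdkn1c, a cyclin-dependent kinase inhibitor that restrains fetal growth, averaged 7.35 in GFP positive and 6.04 in GFP negative cells, against 8.81 in unsorted BMP4 and 4.45 in untreated cells. Igf2r, the receptor that degrades IGF2, was lower at -0.72 ± 0.10, and its dimmer probe differed by 0.22. The median of the list was -0.45. It was -0.06 with the probes of a gene averaged, and -0.72 over the 7 genes left when 9 arrays had to detect the probe.

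**Figure D3:**
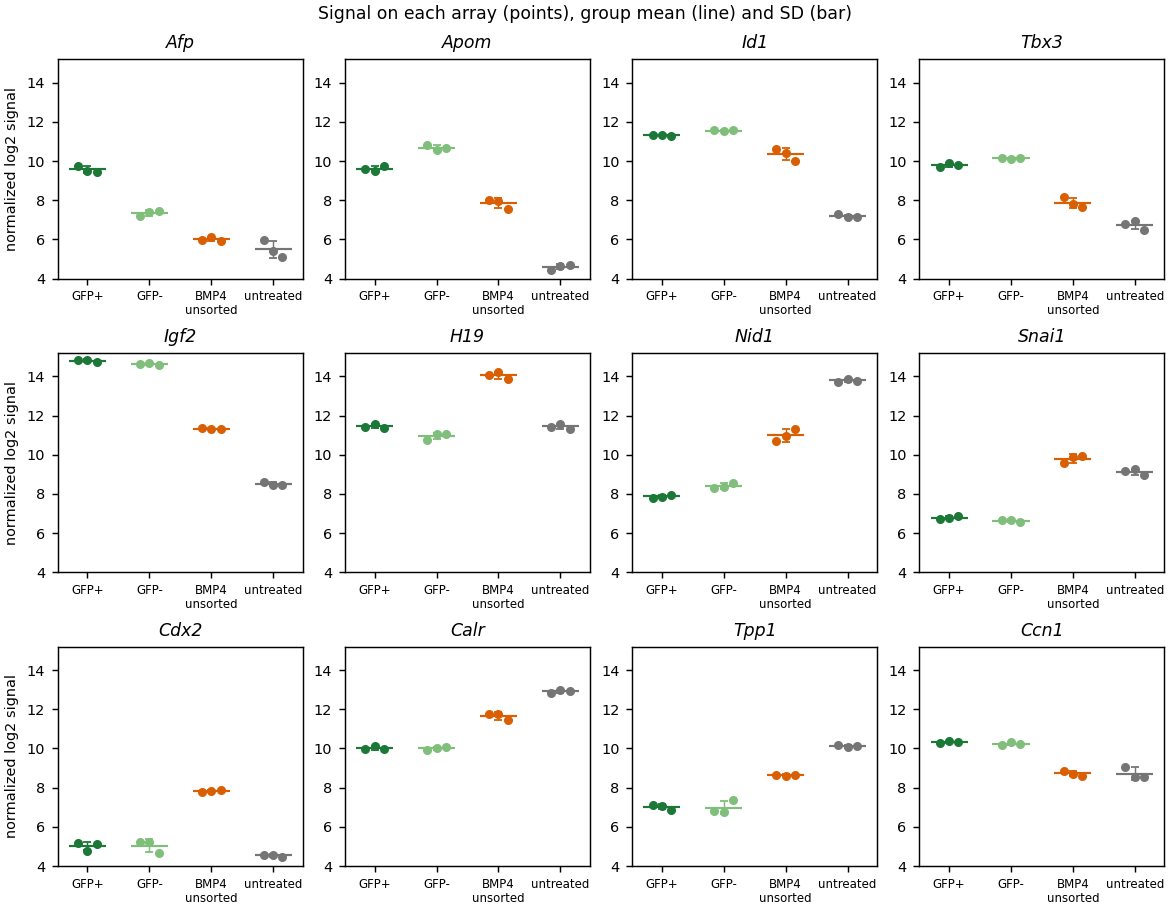
Normalized log2 signal (y axis) of 12 genes on every array, in GFP positive, GFP negative, unsorted BMP4 and untreated cells, 3 arrays each; lines are group means and bars the SD. For each gene shown the 6 sorted arrays lie all above or all below the 3 unsorted BMP4 arrays, as was the case for 59.5% of all genes. The lowest detected signal was 5.42 to 5.83 on the 12 arrays.

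Genes of the epithelial junctions lay on the same side as visceral endoderm. Of 16 measured, 11 were higher in both fractions (68.8%, against 29.2% of all genes) and 3 were lower (18.8%, against 28.6%). The median was 0.60 (9 higher, 3 lower and 0.46 with median scaling). Cldn6, a tight junction claudin of embryonic epithelia, gave 13.67, 13.64 and 13.63 on GFP positive, 13.69, 13.70 and 13.75 on GFP negative, and 12.28, 12.13 and 12.08 on unsorted BMP4 arrays (1.52 ± 0.07). Dsp, the desmosomal linker desmoplakin, was higher by 1.54 ± 0.10, and Dsg2, a desmosomal cadherin, by 0.94 ± 0.08, though the 3 probes of Dsg2 ran from -0.18 to 0.94. Cdh1, E-cadherin, was higher by 0.80 ± 0.12. Krt18 was higher by 0.90 ± 0.06 and its keratin partner Krt8 by 0.36 ± 0.06, and Krt8 had no call under median scaling (0.22, larger adjusted p = 0.0844). F11r, Pard6b and Ctnnd1, which serve junction assembly and polarity, were lower.

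Matrix genes outside the parietal set were mostly higher. Of 17 measured, 10 were higher (58.8%, against 29.2% of all genes) and 3 lower (17.6%, against 28.6%). The median was 0.67 (0.55 with undetected genes at their bounds, 0.52 with median scaling). Lamb3, a laminin chain of epithelial basement membranes, averaged 8.35 in GFP positive and 7.29 in GFP negative cells, against 5.21 in unsorted BMP4 cells, and 1 unsorted array detected it. Col5a1, a fibrillar collagen chain, was detected on all sorted and no unsorted array, at least 2.22-fold higher. Timp3, a matrix-bound inhibitor of metalloproteinases, was higher by 1.41 ± 0.07, while its relative Timp1 was lower at -1.02 ± 0.07.

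The chaperones of the endoplasmic reticulum had the largest share of lower genes among the 26 lists. Of 14 measured, 12 were lower in both fractions and 0 were higher in limma, also at an unadjusted p under 0.05, against 28.6% lower and 29.2% higher of all genes. Their median was -0.68, -0.64 with undetected genes at their bounds and -0.85 with median scaling. Calr, the calcium-binding chaperone calreticulin, gave 9.96, 10.13 and 9.96 on GFP positive, 9.94, 10.02 and 10.10 on GFP negative, and 11.77, 11.75 and 11.44 on unsorted BMP4 arrays, against 12.91 in untreated cells. All 6 sorted arrays were below the 3 unsorted, by a difference of -1.63 ± 0.08 on the log2 scale ( larger adjusted p = 1.14e-08, limma). Pdia4, a disulfide isomerase, differed by -0.79 ± 0.08, and Herpud1 and Sel1l, which serve the degradation of misfolded proteins, by -1.06 ± 0.09 and -0.98 ± 0.06. Herpud1 was at -0.69 with only the 9 BMP4 arrays normalized together and the brightest probe picked again on them. Sel1l was at -0.63 with its 3 probes averaged. Hspa5, the master chaperone BiP, was 7.02, 6.86 and 6.71 on GFP positive, 6.81, 7.16 and 6.89 on GFP negative, and 7.51, 7.46 and 7.66 on unsorted BMP4 arrays. Xbp1, a transcription factor of the unfolded protein response, was lower by a smaller amount (-0.29 ± 0.06). Creld2 and Dnajb11 were not outside, and the factor Ddit3, counted elsewhere, differed by -0.12 ± 0.09.

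The promoters of this list were searched for the endoplasmic reticulum stress element, to which the factors ATF6 and NF-Y are known to bind. The letters searched on both strands were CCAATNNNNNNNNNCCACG. They were found in Hspa5, Calr and Pdia6, 3 of the 11 lower genes with a promoter in the table (27.3%), and in Creld2, which was not outside. Over all measured genes of the list the share was 4 of 13 (30.8%), so the match was not more frequent among the lower genes. Of 27025 genes 0.137% had it, a contrast that describes the list and not the lower calls. The 3 lower genes are shown from RefSeq's table on GRCm38.p6, each 300 bases, with the match in capitals (on the opposite strand in Calr).
Hspa5 (chr2:34771840-34772139, plus strand): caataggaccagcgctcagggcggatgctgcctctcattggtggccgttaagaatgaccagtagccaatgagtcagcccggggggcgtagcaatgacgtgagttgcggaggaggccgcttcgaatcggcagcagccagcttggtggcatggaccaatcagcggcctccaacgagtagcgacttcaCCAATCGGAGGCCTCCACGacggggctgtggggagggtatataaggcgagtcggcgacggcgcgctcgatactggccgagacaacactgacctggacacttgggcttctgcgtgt
Calr (chr8:84846882-84847181, minus strand): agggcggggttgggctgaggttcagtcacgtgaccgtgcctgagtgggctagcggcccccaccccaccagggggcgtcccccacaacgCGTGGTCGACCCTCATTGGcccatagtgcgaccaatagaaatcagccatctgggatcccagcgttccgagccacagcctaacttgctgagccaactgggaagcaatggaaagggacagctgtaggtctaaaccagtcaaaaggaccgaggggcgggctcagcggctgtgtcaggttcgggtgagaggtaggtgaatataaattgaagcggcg
Pdia6 (chr12:17266339-17266638, plus strand): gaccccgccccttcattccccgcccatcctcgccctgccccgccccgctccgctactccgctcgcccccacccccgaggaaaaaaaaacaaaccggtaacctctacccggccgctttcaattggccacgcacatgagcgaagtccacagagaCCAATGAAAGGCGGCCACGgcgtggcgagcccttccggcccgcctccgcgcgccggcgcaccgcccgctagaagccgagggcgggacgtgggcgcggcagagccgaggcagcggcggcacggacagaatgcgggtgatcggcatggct
The match is a description of the letters, and binding was not measured.

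Lysosomal genes were also mostly lower. Of 22 measured, 13 were lower (59.1%, against 28.6% of all genes), 2 were higher (9.09%, against 29.2%) and 7 were not outside. The median was -0.41 (-0.48 with median scaling, -0.34 without a gene below background). Tpp1, a lysosomal peptidase, was 7.13, 7.09 and 6.88 on GFP positive, 6.83, 6.74 and 7.37 on GFP negative, and 8.67, 8.61 and 8.65 on unsorted BMP4 arrays, against 10.13 in untreated cells. The difference was -1.64 ± 0.11, with no overlap between sorted and unsorted arrays. The hydrolases Ctsa (-1.09 ± 0.10), Hexa (-1.04 ± 0.08) and Gaa (-0.91 ± 0.07) were lower, as was Ctsd, cathepsin D (-0.72 ± 0.12). The 4 probes of Ctsa differed by -1.09 to -0.14, and Gaa had no call when its probes were averaged (-0.26, larger adjusted p = 0.054). Gla was called lower but was detected on none of the 9 arrays, so it has no fold. Npc1, which exports cholesterol from lysosomes, was higher by 0.67 ± 0.07, and Lgmn, the protease legumain, by 0.48 ± 0.07.

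The CLEAR element, bound by the factor TFEB, marks many lysosomal promoters, and its core TCACGTGA (which reads the same on both strands) was searched. It was found in 4 of the 9 lower lysosomal genes with a promoter in the table (44.4%), against 1.12% of 27025 genes. Over all measured genes of the list with a promoter there, the share was 4 of 17 (23.5%). The 4 genes were Ctsa, Ctsd, Mcoln1 and Gla, the last undetected on the 9 arrays, and no other measured gene of the list had it. Its inner letters CACGTG were in 5 of the 9 lower genes (55.6%) and in 8 of the 17 measured (47.1%), against 8.09% of 27025 genes. The Calr promoter above also holds it, in lower case there. The 3 genes above background are shown, with each match in capitals.
Ctsa (chr2:164833523-164833822, plus strand): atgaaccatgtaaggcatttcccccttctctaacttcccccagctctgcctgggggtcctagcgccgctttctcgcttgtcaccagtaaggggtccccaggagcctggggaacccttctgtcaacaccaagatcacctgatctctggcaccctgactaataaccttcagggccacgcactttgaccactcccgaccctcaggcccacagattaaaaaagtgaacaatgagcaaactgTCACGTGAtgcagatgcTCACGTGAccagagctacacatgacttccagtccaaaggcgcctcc
Ctsd (chr7:142387778-142388077, minus strand): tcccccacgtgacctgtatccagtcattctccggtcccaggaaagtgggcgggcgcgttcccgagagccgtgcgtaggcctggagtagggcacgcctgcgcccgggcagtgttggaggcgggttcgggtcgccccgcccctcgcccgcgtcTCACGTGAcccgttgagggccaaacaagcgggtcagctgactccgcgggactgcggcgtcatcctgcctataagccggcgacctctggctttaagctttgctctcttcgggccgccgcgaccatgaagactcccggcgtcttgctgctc
Mcoln1 (chr8:3500269-3500568, plus strand): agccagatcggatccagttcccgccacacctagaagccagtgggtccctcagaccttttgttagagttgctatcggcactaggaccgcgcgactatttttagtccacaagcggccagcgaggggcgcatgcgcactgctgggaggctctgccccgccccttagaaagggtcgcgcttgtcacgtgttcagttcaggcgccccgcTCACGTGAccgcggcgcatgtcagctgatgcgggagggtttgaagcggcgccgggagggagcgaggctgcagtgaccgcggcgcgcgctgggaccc
Mcoln1, a calcium channel of lysosomes, was lower by a difference of -0.54 ± 0.08. The matches describe the letters, and binding was not measured. Whether a match goes with the lower calls was not tested.

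Interferon and antigen presentation genes were lower where they were called. Of 9 measured, 7 were lower (77.8%) and 0 higher in limma, also at an unadjusted p under 0.05, against 28.6% and 29.2% of all genes. The median was -0.48 (-0.62 with median scaling). Irf9, the DNA-binding part of the interferon-stimulated factor, gave 6.79, 6.99 and 7.02 on GFP positive, 6.91, 7.10 and 7.12 on GFP negative, and 8.47, 8.43 and 8.28 on unsorted BMP4 arrays (-1.41 ± 0.07). Its partner Stat2 (-0.96 ± 0.10) was lower, and so was the class I heavy chain H2-D1 (-1.03 ± 0.08) with its light chain B2m (-0.46 ± 0.08). Ifitm1 and Ifitm2, membrane proteins of antiviral defence, were not outside.

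Genes of the mitochondrial respiratory chain and of the cytosolic ribosome were called lower more often than higher. Of 75 respiratory chain genes 36 were lower (48%, against 28.6% of all genes) and 10 higher (13.3%, against 29.2%), with a median of -0.23. Ndufc2, a subunit of complex I, differed by -0.95 ± 0.07, and Sdhd, which anchors complex II, by -0.98 ± 0.10. Of 79 ribosomal protein genes 33 were lower (41.8%) and 6 higher (7.59%), with a median of -0.15. Rpl13a differed by -0.94 ± 0.07, while Rps15a was higher by 1.49 ± 0.10 and Rps4l by 1.11 ± 0.09. Ribosomal protein genes have many processed pseudogenes, and probes may not tell these apart. With median scaling the medians were -0.37 and -0.25, against -0.14 for all genes.

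Genes that make ribosomes were called higher more often than lower. Of 15 ribosome biogenesis genes 7 were higher (46.7%, against 29.2% of all genes) and 1 was lower (6.67%, against 28.6%). The other 7 were not outside, and the median was 0.25 (0.13 with median scaling). Pes1, a factor for large subunit processing, was 10.16, 10.05 and 10.08 on GFP positive, 10.04, 9.88 and 9.86 on GFP negative, and 8.38, 8.46 and 8.49 on unsorted BMP4 arrays (1.57 ± 0.07). Ncl, the nucleolar protein nucleolin, was higher by 1.51 ± 0.07, and Mybbp1a, another nucleolar protein, by 0.92 ± 0.07, though the 4 probes of Mybbp1a ran from -0.22 to 0.92. Npm1 was the lower gene, at -0.41 ± 0.06.

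Immediate early genes, which cells switch on within minutes of a signal, were split by gene. Of 17 measured, 11 were higher in both fractions (64.7%, against 29.2% of all genes). The 5 lower genes (29.4%) were near the share of all genes, 28.6%. The median was 0.74 (0.61 with median scaling, and 0.61 with undetected genes at their bounds). Ccn1, a matrix-bound signalling protein, gave 10.28, 10.39 and 10.34 on GFP positive, 10.20, 10.31 and 10.24 on GFP negative, and 8.87, 8.72 and 8.59 on unsorted BMP4 arrays (1.57 ± 0.11). Dusp1, a phosphatase of MAP kinases, was higher by 1.66 ± 0.10, Atf3 by 1.22 ± 0.07, and Jun, part of the factor AP-1, by 1.10 ± 0.11. Junb, a relative of Jun, was 6.77, 7.00 and 6.85 on GFP positive, 6.72, 6.74 and 6.88 on GFP negative, and 9.08, 9.33 and 9.18 on unsorted BMP4 arrays, a difference of -2.37 ± 0.08. The other lower genes were Klf4 (-1.81 ± 0.09), Zfp36 (-1.26 ± 0.06), Jund (-0.86 ± 0.10) and Fos (-0.69 ± 0.07). The 3 probes of Klf4 ran from -1.81 to -0.86. Egr1 averaged 7.60 in GFP positive and 8.68 in GFP negative cells, against 7.00 in unsorted cells. Its larger adjusted p was 0.0128, and the call was lost with median scaling (0.0764) and without the third GFP positive array (0.0508).

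Other stress lists gave mixed counts. Of all genes tested, 29.2% were higher and 28.6% lower in both fractions. Of 19 heat shock and cytosolic chaperone genes 8 were higher (42.1%) and 3 lower (15.8%), with a median of 0.15. Median scaling gave 4 higher, 5 lower and 0.03 for that list, and 2154 higher and 3647 lower over all 10597 genes. Hspb1 was higher by 1.09 ± 0.10 and Hsph1 by 1.04 ± 0.10, while Hspa1a, the inducible chaperone, was called lower but detected on none of the 9 arrays and has no fold. That call was lost in 7 of 19 settings, with a larger adjusted p of up to 0.151. Of 18 genes of the ATF4 and amino acid response 4 were higher (22.2%) and 4 lower (22.2%). Sesn2, a stress-induced inhibitor of mTORC1, differed by -1.74 ± 0.14, and Atf5 by 1.19 ± 0.08. Of 23 glycolysis and hypoxia genes 5 were higher (21.7%) and 4 lower (17.4%). Vegfa, an angiogenic factor, was at 1.18 ± 0.10, Aldoc, an aldolase, at -2.26 ± 0.07 and Gapdh at 0.01 ± 0.06. Of 14 oxidative and metal stress genes 4 were higher (28.6%) and 4 lower (28.6%). Srxn1, which restores peroxiredoxins, was at 1.45 ± 0.09 and Hmox1, haem oxygenase, at -0.92 ± 0.09. The medians of the ATF4 (0.15) and glycolysis (0.09) lists turned negative with median scaling, at -0.03 and -0.02.

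Cell cycle genes were called in both directions. Of 23 mitosis genes 8 were lower (34.8%, against 28.6% of all genes), 3 were higher (13%, against 29.2%) and 12 were not outside. The median was -0.26 (10 lower, 0 higher and -0.36 with median scaling). Over all 10597 genes, median scaling gave 3647 lower and 2154 higher. Aurkb, a kinase of chromosome segregation, differed by -0.89 ± 0.06, and Birc5, its partner survivin, by -0.66 ± 0.06, with the 3 probes of Birc5 from -0.66 to -0.16. Of 26 replication genes 10 were higher (38.5%) and 8 lower (30.8%), against 29.2% and 28.6% of all genes. Median scaling gave 3 higher and 8 lower, and the median of 0.01 became -0.11. Rrm1 (-1.17 ± 0.07) and Rrm2 (-1.18 ± 0.10), both subunits of ribonucleotide reductase, were lower, and Gins1, part of the replicative helicase, was higher by 1.14 ± 0.09. Of 51 histone genes 17 were lower (33.3%) and 10 higher (19.6%), among near-identical copies that probes may not tell apart. H1f0, a linker histone of slowly dividing cells, was higher by 1.41 ± 0.10. Of 21 p53 and apoptosis genes 6 were lower (28.6%, the share of all genes) and 4 higher (19%). Bax, which opens mitochondria in apoptosis, gave 9.23, 9.17 and 8.71 on GFP positive, 8.62, 8.60 and 8.73 on GFP negative, and 10.53, 10.88 and 10.70 on unsorted BMP4 arrays (-1.86 ± 0.11), and Gadd45a, a growth arrest gene, differed by -1.55 ± 0.06.

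Cytoskeletal and adhesion genes were mixed. Of all genes tested, 29.2% were higher and 28.6% lower in both fractions. Of 14 targets of the YAP and TEAD factors 5 were higher (35.7%) and 0 lower in limma, also at an unadjusted p under 0.05. Their median was 0.15 (0.03 with median scaling). Ankrd1 was higher by 1.49 ± 0.09, Axl, a receptor kinase, by 1.08 ± 0.09 and Amotl2 by 1.06 ± 0.08, while Ccn2 was not outside at -0.04 ± 0.09. Of 19 actin cytoskeleton genes 7 were higher (36.8%) and 5 lower (26.3%). Acta2, smooth muscle actin, was 9.90, 10.02 and 10.03 on GFP positive, 8.85, 8.93 and 9.17 on GFP negative, and 6.82, 6.38 and 6.70 on unsorted BMP4 arrays. Its 4 probes differed by 0.90 to 2.85, all higher in the fractions. Of 16 integrin and focal adhesion genes 4 were higher (25%) and 5 lower (31.2%). Itga3 was at 0.89 ± 0.07 and Itga6, a laminin receptor chain, at -1.04 ± 0.14 (-0.69 without background correction). Of 22 cholesterol synthesis genes 6 were higher (27.3%) and 6 lower (27.3%), with Dhcr7, the last enzyme of the pathway, at -1.31 ± 0.06. Of 32 proteasome genes 8 were higher (25%) and 10 lower (31.2%). The integrin, cholesterol and proteasome shares were near those of all genes.

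**Figure D4:**
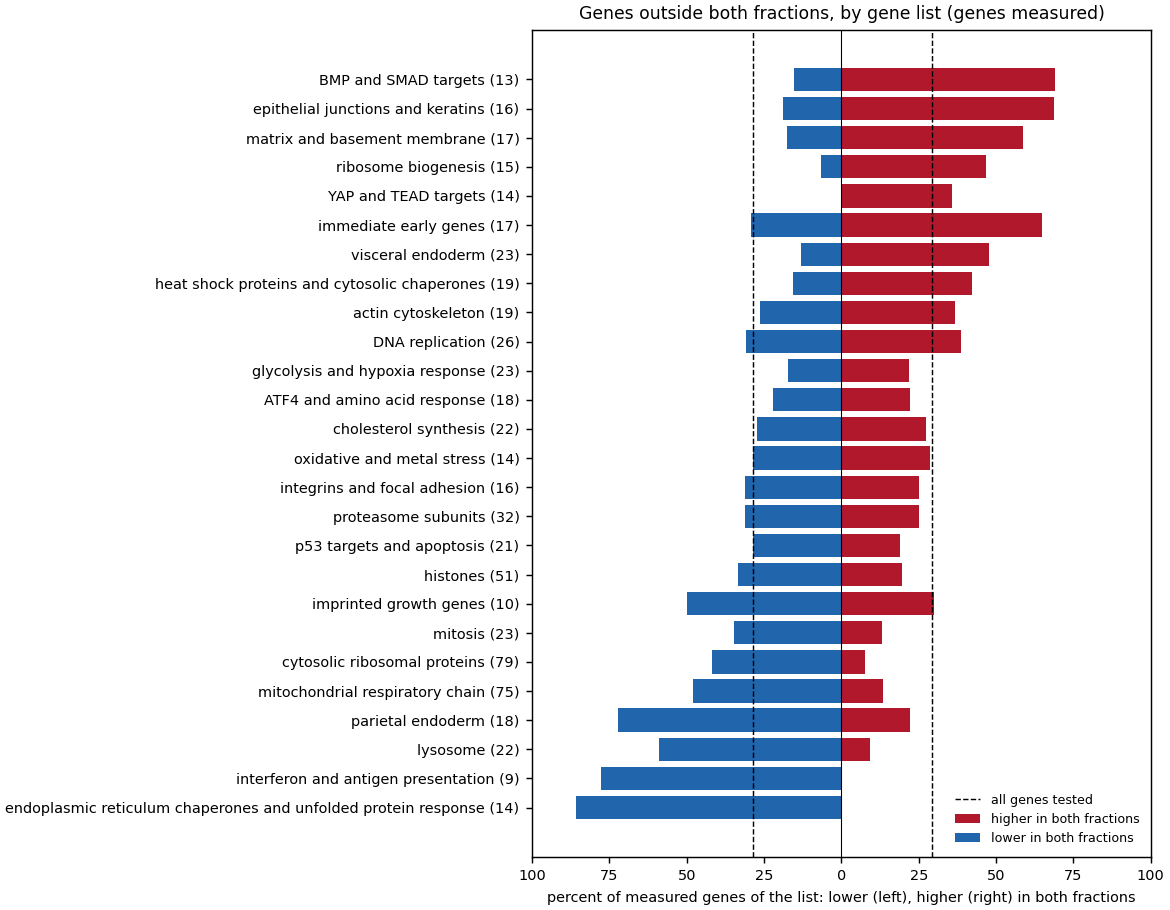
Share of the measured genes of each list (number in brackets) that was higher in both fractions than in unsorted BMP4 cells (red, right) or lower in both (blue, left), in percent, for 26 lists sorted by the balance. Dashed lines mark the shares among all genes tested, 29.2% higher and 28.6% lower; the chaperone list has 85.7% lower and 0.00% higher, and the BMP list 69.2% higher and 15.4% lower.

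Among all named genes the farthest from both fractions were spread over several functions. Epb41l3, a membrane skeleton protein, gave 11.46, 11.45 and 11.35 on GFP positive, 11.35, 11.39 and 11.44 on GFP negative, and 7.69, 7.67 and 7.93 on unsorted BMP4 arrays, 12.5-fold higher in the fractions. Igfbp2, a binding protein of insulin-like growth factors, was higher by 3.97 ± 0.09. Ckb, brain creatine kinase, was higher by 3.26 ± 0.08, Anxa6, a membrane-binding annexin, by 2.96 ± 0.08, and Scamp5 by 3.48 ± 0.11, with a dimmer Scamp5 probe at 1.12. Enpp5 was detected on all 6 sorted arrays and on no unsorted array, at least 12.4-fold higher. Ephb2, an ephrin receptor, was likewise at least 8.21-fold higher, with a dimmer probe at a difference of 0.88, and Slc9a3, an apical sodium-proton exchanger, at least 5.28-fold.

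Among the genes farthest below were Snai1, Nid1, H19, Junb and Aldoc, given above. Tspan8, a tetraspanin, was 5.97, 6.01 and 5.81 on GFP positive, 5.89, 6.25 and 5.99 on GFP negative, and 9.14, 9.19 and 9.75 on unsorted BMP4 arrays, against 11.41 in untreated cells (-3.38 ± 0.13). Vcam1, an adhesion molecule, differed by -2.81 ± 0.08, Cadm1, another, by -2.63 ± 0.13 and Aqp8, a water channel, by -2.67 ± 0.16. Slc50a1, a sugar transporter, differed by -2.66 ± 0.08, and Txnip, a thioredoxin-binding protein that responds to glucose, by -2.30 ± 0.11. Btbd6, Gpx3, a secreted glutathione peroxidase, and Pparg, a nuclear receptor of fat cells, were detected on no sorted array and on all unsorted arrays, at least 5.68-fold, 3.97-fold and 2.87-fold lower.

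For the genes that differed between the fractions, the unsorted mean lay outside both fractions more often than between them. Of the 571 genes called between GFP positive and GFP negative cells, the unsorted mean lay between the means of the fractions for 139, above both for 201 and below both for 231. Of the 201, 153 were called lower in both fractions, and of the 231, 170 were called higher in both. As shares of the 571 these are near those of all genes tested, 28.6% lower and 29.2% higher. Calls outside both were thus not particular to the genes that the sort separates. Of the 40 genes that were also at least 2-fold apart, 27 were higher in GFP positive cells. The unsorted mean lay between for 7, above for 15 and below for 18. Of those above, 12 were called lower in both fractions, and of those below, 14 were called higher in both. For 15 of the 40 a fraction had no array with detected signal. Over the 22 genes detected on at least 1 array of each of the 3 groups, the numbers were 5 between, 7 above and 10 below. Spp2, a liver-secreted phosphoprotein, averaged 9.29 in GFP positive and 7.47 in GFP negative cells, against 5.92 in unsorted cells, and its order was that of Afp. Ccdc80, a matrix protein, averaged 6.98 in GFP positive and 5.32 in GFP negative cells, against 8.54 in unsorted cells, so the fraction with more of it was still below the unsorted cells. No GFP negative array detected Ccdc80. Vtn, the serum protein vitronectin, averaged 6.83 in GFP positive and 4.88 in GFP negative cells with unsorted cells between at 5.49, on 3, 0 and 1 arrays with detected signal in that order. Trf and Apob, the carriers of iron and lipid, were also between. Spp2, Ccdc80 and Vtn were chosen after their values were seen.

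**Figure D5:**
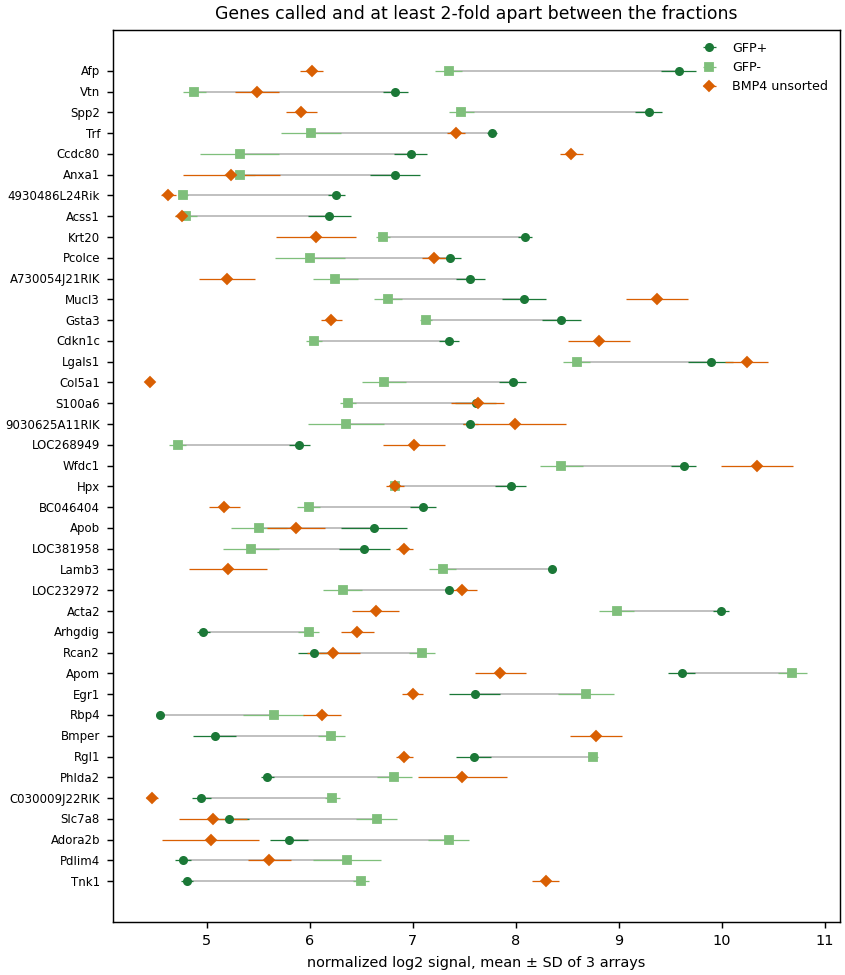
Normalized log2 signal (x axis, mean ± SD of 3 arrays) of the 40 genes that were called and at least 2-fold apart between the fractions, in GFP positive (dark circles), GFP negative (light squares) and unsorted BMP4 cells (diamonds), ordered by the difference between the fractions. The diamond lies between the other symbols for 7 genes, to the right of both for 15 and to the left of both for 18.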

How the data were processed

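RNA was measured on 12 single-colour Illumina bead arrays (MouseWG-6 V2). The deposited table holds mean bead intensity per probe, exported from BeadStudio 3.4.0 without normalization, per the file headers. Its detection column is a fraction that the authors' software gave from 0 to 1, and 1 minus it was used as the detection p-value. A second deposited table holds log2 values of the authors' own processing, for 20178 probes with no link to gene names used here, and it served as an alternative. The submitters' processing notes name lumi, without its role.

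In limma 3.58.1 (R 4.3.3), background was corrected from the detection p-values with an offset of 16, log2 was taken, and the 12 arrays were quantile normalized. Of 45281 probes, 15448 were kept because 3 or more arrays detected them (detection p below 0.01), and 29833 were left out. The brightest kept probe stood for a gene, which gave 10597 genes, and 3424 of these had more than 1 kept probe. For 289 genes, probes were called outside in both directions. Array names were updated through RefSeq's symbols and synonyms, and 8904 genes have a current name.

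A model with a mean for each of 4 groups was fitted to all genes (lmFit, eBayes), with Benjamini-Hochberg adjustment over the 10597 genes and a threshold of 0.05. The comparisons of GFP positive and of GFP negative cells with unsorted cells share the 3 unsorted arrays. Errors are SE of the fit unless given as SD. Where one side was undetected on all its arrays, the fold is the bright side (the nearer fraction) over the higher of the lowest detected signal and the dim probe's own signal per array.

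Members, gene lists and rules were chosen with earlier results of these data known. The lists are 26 of processes, 6 of other cell types and 1 of single genes. The rule for named genes took the 12 farthest genes in each direction, the 6 largest bounds in each direction, up to 4 members of each list and the single genes. Other list members were named after their values were seen. Some genes that the rule took are not reported here. Alternatives changed the background correction, offset, normalization, filter, probe rule, samples fitted, array weights, replicate block, threshold and replicates.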

Additional observations from a re-analysis of the deposited data

Results flagged for a closer look

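For 30 of the named results, the difference from unsorted BMP4 cells was not the same in GFP positive and GFP negative cells, by the limma contrast of GFP positive minus GFP negative at an adjusted p under 0.05. All values below are that contrast on the log2 scale. None of the 30 was called in opposite directions against unsorted cells in the 2 fractions.

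Afp, the gene behind the sort, had a value of 2.23 (adjusted p = 6.3e-06, limma). Among visceral endoderm genes, Foxa1 was higher in GFP positive cells by 0.75, while Apom (-1.06), Cubn (-0.77), Lrp2 (-0.77), Amn (-0.49) and Apoe (-0.34) were higher in GFP negative cells. The uptake receptors thus ran against Afp between the fractions, though Cubn, Lrp2 and Amn were above unsorted cells in both.

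Matrix and cytoskeletal genes were higher in GFP positive cells for Col5a1 (1.25), Lamb3 (1.06), Acta2 (1.00), Fbln2 (0.75) and the receptor kinase Axl (0.62), and lower for Nid1 (-0.53). Bmper gave -1.14, with no GFP positive array above background, and Id2 gave -0.58. Among immediate early genes, Egr1 gave -1.08 and Dusp1 0.45. H19 gave 0.52, the growth factor binding protein Igfbp2 0.90, and the endothelial receptor Tek 0.52.

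The other genes were Txnip (0.69), Rps4l (0.66), Slc45a3 (0.62), Tceal5 (0.43), Spata13 (0.43), Aldoc (-0.60), Ckb (-0.51), Dhcr7 (-0.37), P4ha1 (-0.36) and A630012P03Rik (-0.33).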

How the results depend on the processing

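Counts of genes called outside both fractions kept within 1.5 times of 3091 higher and 3030 lower under most settings. Leaving out 1 array at a time gave 2913 to 3038 higher and 2815 to 2991 lower outside both, 3467 to 3616 higher and 3454 to 3666 lower for both fractions together, 3245 to 3417 and 3221 to 3507 for GFP positive cells, and 3277 to 3501 and 3200 to 3443 for GFP negative cells. The set of genes at least 2-fold apart between the fractions (40 with all arrays) was chosen again in each fit, and leaving out 1 array gave 6 to 11 with unsorted cells between, 12 to 16 above and 17 to 24 below. The 11 came without the third GFP positive array.

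Requiring a log2 difference of at least 1 left 745 higher and 442 lower for both fractions together, 763 and 446 for GFP positive cells, 753 and 459 for GFP negative cells, and 626 and 336 outside both, by fitted differences that include undetected probes (510 and 272 with those at their bounds). Tests per probe rather than per gene count more features. The authors' processed table gave 6059 lower probes for both fractions together, 5616 for GFP positive cells, 5570 for GFP negative cells and 4861 outside both, with 0, 2 and 3 probes between, above and below. Each kept probe on its own, an alternative chosen after seeing the data, gave 5784, 5431, 5353 and 4695 lower. The numbers between, above and below were 2, 5 and 9 without background correction and 3, 5 and 9 with an offset of 50. With detection required on 9 arrays they were 4 between and 10 below. For those 3 settings the cause was not tested.

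Deviations from group means were correlated between arrays. Between the fractions, same-numbered arrays gave r of 0.152, 0.127 and -0.013, and other pairs -0.197 to 0.078. Between a fraction and unsorted cells, same-numbered arrays gave -0.112 to 0.016. The labels name no pairs, and the main fit took the numbers as no pairing. Whether same-numbered fractions came from 1 sort cannot be told from these values. With the replicate number as a block, 3074 genes were higher and 3006 lower outside both, 3662 and 3748 for both fractions together, 3441 and 3512 for GFP positive cells and 3494 and 3452 for GFP negative cells, with 7, 15 and 18 between, above and below. The block changed the call of no named gene.

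Of 167 named genes, 141 were measured under all 20 settings run on genes, and 129 of these kept direction and call under each. The other 26 were left out where 9 arrays had to detect the probe. Over the settings each had, 12 of the 167 lost a call under at least 1, and 3 turned direction. Cald1 was 0.26 with quantile normalization of the 9 BMP4 arrays. Kif23 was 0.02 and Actb -0.44 with the mean of kept probes, which average probes of opposite sign. The number of arrays and the raw signal over background limit what can be measured for dim genes.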

Other observations

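Some array names matched no current RefSeq symbol or synonym. Among 1693 such genes, both fractions were at least 2-fold higher than unsorted cells for 125 and at least 2-fold lower for 34, with undetected sides at their bounds. Over all 10597 genes tested these counts were 510 (4.81%) and 272 (2.57%). The corresponding counts were 238 and 171 among 5745 genes matched by symbol, and 147 and 67 among 3159 matched by synonym. The median log2 level was 6.76 for the unmatched names, 8.51 for those matched by symbol and 8.15 for those matched by synonym, and a difference between the classes was not tested.

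Markers of mesoderm, blood and endothelium were split between the fractions and unsorted cells. Runx1, a blood transcription factor, was detected on no unsorted array and was at least 1.89-fold higher in both fractions, while Cdh5, the endothelial cadherin, (-0.86 ± 0.08) and Tek, an angiopoietin receptor, (-0.75 ± 0.06) were lower in both. A dimmer Cdh5 probe differed by -0.05, and Cdh5 was at -0.45 with both probes averaged.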
